A study of Mus musculus with 3 samples.

Results

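The clustered protocadherins are cell surface proteins of the cadherin superfamily, encoded in mouse by 3 neighbouring gene clusters, α, β and γ, on chromosome 18. Members were taken from the deposited gene table by symbol, as the genes named Pcdha, Pcdhac, Pcdhb, Pcdhga, Pcdhgb or Pcdhgc with a number. This gave 58 of 51826 genes, of which 14 belonged to the α, 22 to the β and 22 to the γ cluster. Of these, 57 had 20 or more counts in at least 1 library, as did 18074 genes of the whole table, and these are called measured. The member that was not measured, Pcdhb1, had 0 counts in all 3 libraries, which allows up to 0.0856 CPM (counts scaled to library size) in dE3, 0.0908 CPM in cKO and 0.0939 CPM in WT. The family was taken up because single members differ strongly in the dE3 library, so all values of dE3 below are a description of members chosen for them.

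RNA of spinal cord from C57BL/6 mouse embryos at embryonic day 13.5 was sequenced from 3 genotypes. In dE3, Nestin-Cre removed exon 3 of Ctnnb1, the β-catenin gene, which the labels call a gain of function, since that exon encodes the residues that mark β-catenin for degradation. In cKO, Nestin-Cre removed exons 2 to 6 of Ctnnb1, which the labels call a loss of function, and the third group was wild type (WT). Each group was 1 library, from a number of embryos that the labels leave unstated. Nestin-Cre acts in neural progenitors and passes the deletion on to their progeny. Which other cells of the dissected tissue were recombined was not measured here. The WT label names neither Cre nor a floxed allele. In the library names, dE3 and WT are marked L2 and cKO is marked L3, so this mark and the cKO genotype cannot be told apart.

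In the α and γ clusters, each gene starts with its own promoter and a large variable exon, which encodes the extracellular cadherin repeats, the membrane span and the start of the cytoplasmic part. That exon is spliced to constant exons at the end of the cluster, which give all α or all γ proteins a common cytoplasmic tail, while β genes consist of a variable exon without such a tail. Single neurons use a few promoters of each cluster, in a choice that is known to involve antisense transcription, DNA methylation and looping by CTCF and cohesin, and the proteins bind like partners on other cell membranes. They are known for self-avoidance of neurites and, in the spinal cord of mice, for the survival of interneurons, which depends on the γ cluster.

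The α genes lay at 36930184 to 37187661, the β genes at 37264938 to 37524479 and the γ genes at 37661793 to 37841873, all on the plus strand of chromosome 18 (GRCm38). All 58 members had these coordinates in GENCODE vM21. All 14 α genes shared 3 constant exons, of 59, 89 and 2712 bases, and all 22 γ genes shared 3 others, of 59, 89 and 1971 bases. The last constant exon spans 37184946 to 37187657 in α and 37839903 to 37841873 in γ. Among transcripts that hold it, the constant exons made up a median of 53.4% of the length in α and 44.9% in γ. Much of an α or γ transcript thus cannot tell one member of its cluster from another.

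Sharing was also measured as the percent of 50-base words of a gene's transcripts that are also found in the transcripts of other genes, with both strands searched. Over the 14 α genes the median was 61.0% (48.2% to 91.6%), over the 22 γ genes 47.4% (35.5% to 99.0%), and over the 22 β genes 4.48% (0% to 64.2%). Of the β genes, 21 shared under 20% of their words. The exception was Pcdhb12, at 64.2%, which overlaps the antisense gene Gm37446. The coding parts of the variable exons were alike without being the same. Their median identity to the nearest member was 78.6% in α, 76.5% in β and 73.4% in γ, and the most alike pair of all was Pcdhb6 and Pcdhb8 at 89.0%. Values of single α and γ genes therefore rest on how the authors' counting divided reads of shared exons, whereas the sum over a cluster does not depend on how they were divided among its members. The gene IDs, ENSMUSG00000007440 and ENSMUSG00000102206, both carry the symbol Pcdha11 in the table and are given with their IDs.

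The libraries held 34790053 (dE3), 33048837 (cKO) and 32167470 (WT) estimated counts. The targeted gene Ctnnb1 stood at 461 CPM in dE3, 422 CPM in cKO and 544 CPM in WT, a total that includes reads of the exons left in place and of any cells that were not recombined. Summed over 10 neuronal markers such as Tubb3 and Stmn2, the level was 7764 CPM in dE3, 9004 CPM in cKO and 8757 CPM in WT, with none of the 10 at 0 in any library. Markers of other tissues were not equal either. The 10 skeletal muscle genes summed to 185 CPM in dE3, 47.8 CPM in cKO and 14.1 CPM in WT, where Ckm and Tnni1 were at 0, and Ckm was also at 0 in cKO. The 9 cartilage genes in the table summed to 1086, 511 and 230 CPM and the 10 genes of meninges and mesenchyme to 1327, 1571 and 707 CPM in dE3, cKO and WT, with none at 0. The 8 dorsal root ganglion genes summed to 386 CPM in dE3, 698 CPM in cKO and 486 CPM in WT. In such bulk samples, fewer cells of a type and less RNA per cell cannot be told apart, and the part of these tissues in the values below was not tested.

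Each ratio below is of counts scaled to library size and stands with an exact interval at 95%, which covers counting error only and compares these libraries, not the genotypes. A gene was called higher or lower where the ratio was at least 2-fold and the interval excluded 1. With 1 library per genotype there is no spread between replicates and no p-value.

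Summed over each cluster, the α and β genes were somewhat lower in dE3 than in the other libraries, and the γ genes stood at nearly the same level in all 3. The 14 α genes summed to 4513 counts (129 CPM) in dE3, 6154 counts (186 CPM) in cKO and 5579 counts (175 CPM) in WT. The ratio of dE3 to WT was 0.737 (0.709 to 0.767) and that of cKO to WT 1.07 (1.03 to 1.11). The 22 β genes summed to 6789 counts (194 CPM) in dE3, 8075 counts (245 CPM) in cKO and 7858 counts (246 CPM) in WT. Their ratio was 0.788 (0.762 to 0.814) for dE3 against WT and 0.994 (0.964 to 1.03) for cKO against WT, an interval that includes 1. The 22 γ genes summed to 25684 counts (733 CPM) in dE3, 25065 counts (759 CPM) in cKO and 23837 counts (746 CPM) in WT. Here the ratio was 0.982 (0.965 to 1.00) for dE3 against WT and 1.02 (1.00 to 1.04) for cKO against WT.

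The γ cluster held most of the counts of the family, with 69.4% in dE3, 63.8% in cKO and 64.0% in WT. Within it, the subfamilies differed while the sum was almost level. The 12 γA genes summed to 330 CPM in dE3, 250 CPM in cKO and 246 CPM in WT, and the 7 γB genes to 319 CPM in dE3, 434 CPM in cKO and 428 CPM in WT. The 3 γC genes summed to 83.9 CPM in dE3, 74.8 CPM in cKO and 72.1 CPM in WT. These sums were carried by a few genes described below. Of the 12 γA genes 10 were not called in dE3 against WT, and the median log2 ratio was 0.04 over the γA and -0.02 over the γB genes; the γA sum held 77.1 CPM of Pcdhga10 and 45.8 CPM of Pcdhga12 in dE3, against 12.0 and 21.4 CPM in WT.

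**Figure D1:**
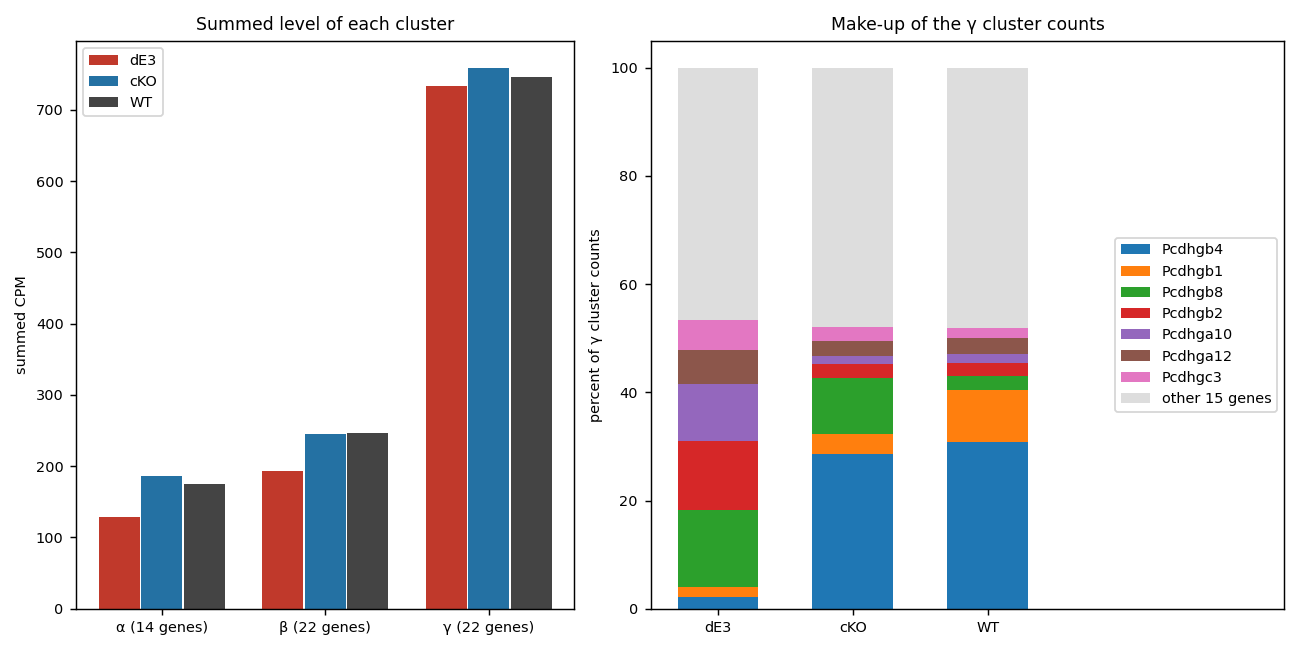
The left panel plots the summed CPM of the α, β and γ genes in dE3, cKO and WT, and the right panel the percent of γ counts taken by each of 7 genes called in any comparison and by the other 15. The γ bars lie between 733 and 759 CPM, while the band of Pcdhgb4 takes 2.13% of γ counts in dE3, 28.6% in cKO and 30.9% in WT.

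Among single genes, 8 of 57 measured members were called in dE3 against WT, 5 higher and 3 lower, where 6.52% of all 18074 measured genes were called higher, 3.78% lower and 10.3% in either direction. Among the 13734 genes whose highest count fell within the range of the members, from 70 to 7365, the share called was 7.14%. A threshold of 1.5-fold called 13 members and 19.4% of all genes, and one of 4-fold 6 members and 3.38%. The members were chosen on this contrast, and nothing is read from these shares. Called were 7 of 22 γ genes, 1 of 21 measured β genes and 0 of 14 α genes. The α genes lay close together, all 14 below a ratio of 1 with a median log2 ratio of -0.39, and the interval lay below 1 for 10 of them. Of the β genes, 20 of 21 lay below 1, 13 of them with their interval, and the median was -0.26. The γ genes were split, 11 above and 11 below 1, with a median of -0.01 but a range of -3.89 to 2.68. Over all measured genes the median was 0.00, with 28.8% of intervals below 1 and 29.1% above.

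**Figure D2:**
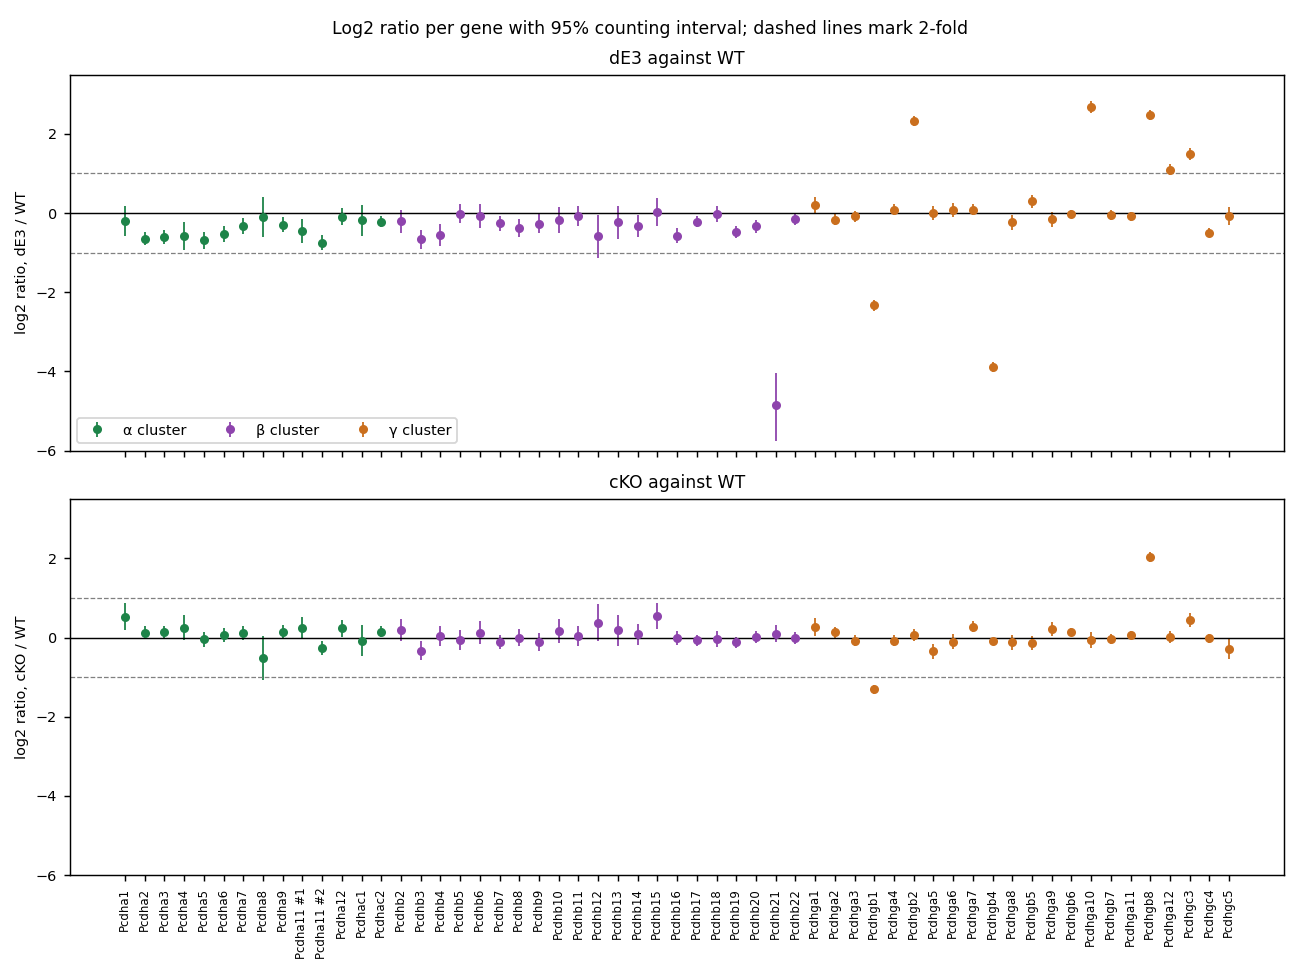
Log2 ratios of the 57 measured members, dE3 against WT above and cKO against WT below, in genomic order with 95% counting intervals, dashed lines at 2-fold. The 2 genes with the symbol Pcdha11 are marked #1 (ENSMUSG00000007440) and #2 (ENSMUSG00000102206). In the upper panel α and β genes lie at or a little below 0 except Pcdhb21 at -4.84, and 7 γ genes lie beyond the dashed lines; in the lower panel only Pcdhgb1 and Pcdhgb8 do.

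In the α cluster the highest level per length in each library was that of Pcdhac2, a C-type gene that is closest to the constant exons. C-type genes are known to be used more evenly by neurons than the alternate members. Pcdhac2 had 9.42 TPM (a level scaled to transcript length and library size) in dE3, 12.0 TPM in cKO and 10.7 TPM in WT, and its count ratio was 0.862 (0.781 to 0.952) for dE3 against WT and 1.11 (1.01 to 1.22) for cKO against WT. The other C-type α gene, Pcdhac1, was low, with 110 counts in dE3, 112 in cKO and 114 in WT, and intervals that included 1 in both comparisons. The C-type pair together stood at a log2 ratio of -0.21 for dE3 against WT, and the 12 alternate α genes at -0.49.

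The 4 other α genes of the 5 with the highest mean CPM are alternate members, whose variable exons encode the recognition part of the protein. Pcdha2 had 13.2 CPM in dE3, 22.6 CPM in cKO and 20.7 CPM in WT, with a ratio of dE3 to WT of 0.640 (0.567 to 0.722). Pcdha3 had 463 counts in dE3, 724 in cKO and 640 in WT, at a ratio of 0.660 (0.584 to 0.744). In both, dE3 was the lowest library and the intervals of cKO against WT included 1. Pcdha9 had 12.6 CPM in dE3, 17.1 CPM in cKO and 15.5 CPM in WT, at a ratio of dE3 to WT of 0.814 (0.715 to 0.927). Pcdha11 (ENSMUSG00000102206) had 10.6 CPM in dE3, 14.9 CPM in cKO and 17.8 CPM in WT, at 0.594 (0.520 to 0.678) for dE3 against WT and 0.840 (0.743 to 0.949) for cKO against WT. It overlaps the antisense gene Gm10545, with 44 counts in dE3, 87 in cKO and 153 in WT, and reads of the pair cannot be told apart where strand was not used. It was also the α gene just outside the 2-fold threshold, 1.68-fold lower in dE3, followed by Pcdha5 at 1.61-fold lower.

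Of the 22 β genes, whose products lack the common tail, the 5 with the highest mean CPM were Pcdhb17, Pcdhb19, Pcdhb22, Pcdhb20 and Pcdhb7. Pcdhb17 had 24.9 CPM in dE3, 27.7 CPM in cKO and 29.0 CPM in WT, at a ratio of dE3 to WT of 0.858 (0.781 to 0.942). Pcdhb19 had 18.8 CPM in dE3, 24.1 CPM in cKO and 26.2 CPM in WT, at 0.719 (0.648 to 0.797). Both were lowest in dE3, and their intervals of cKO against WT included 1. Pcdhb22 had 21.1 CPM in dE3, 23.3 CPM in cKO and 23.5 CPM in WT, at a ratio of 0.900 (0.812 to 0.997). Pcdhb20 had 16.6 CPM in dE3, 21.2 CPM in cKO and 20.9 CPM in WT, at 0.793 (0.709 to 0.888). Pcdhb7 had 14.2 CPM in dE3, 15.8 CPM in cKO and 17.1 CPM in WT, at 0.833 (0.736 to 0.942). None of these 3 had an interval that excluded 1 in cKO against WT. Per length, the highest β level was that of Pcdhb17 in dE3 (13.3 TPM) and WT (15.3 TPM), and that of Pcdhb20 in cKO (14.7 TPM).

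Pcdhb21 stood apart from its cluster. This gene has a single exon, at 37513621 to 37518325, and had 13 counts (0.371 CPM) in dE3, 375 counts (11.4 CPM) in cKO and 339 counts (10.6 CPM) in WT. It was 28.6-fold lower in dE3 than in WT (16.5 to 54.3), while the ratio of cKO to WT was 1.07 (0.922 to 1.24). Its neighbours on the chromosome, Pcdhb20 and Pcdhb22, had 582 and 741 counts in dE3, against 669 and 751 in WT. Pcdhb21 shared 11.3% of its words, and 455 of its bases overlap Pcdhb22 on the same strand. Its coding part was at most 74.3% identical to another β gene, Pcdhb20. Without Pcdhb21 the other 21 β genes summed to a ratio of dE3 to WT of 0.822 (0.795 to 0.849), so the lower β sum did not rest on this gene.

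In the γ cluster, 2 genes with many counts in WT were low in dE3. Pcdhgb4 was the γ gene with the most counts in cKO and WT, with 546 counts (15.6 CPM) in dE3, 7167 counts (217 CPM) in cKO and 7365 counts (230 CPM) in WT. It was 14.8-fold lower in dE3 than in WT (13.6 to 16.2), and the ratio of cKO to WT was 0.942 (0.911 to 0.973). Pcdhgb1 had 497 counts (14.2 CPM) in dE3, 951 counts (28.8 CPM) in cKO and 2278 counts (71.3 CPM) in WT. It was 5.03-fold lower in dE3 than in WT (4.56 to 5.55) and 2.48-fold lower in cKO than in WT (2.29 to 2.67). The 3 libraries thus all differed in Pcdhgb1, whereas in Pcdhgb4 dE3 alone stood low. Pcdhgb4 starts at 37720369 and Pcdhgb1 at 37680233.

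Another 3 γ genes were more than 4-fold higher in dE3 than in WT. Pcdhga10, which starts at 37746993, had 2703 counts (77.1 CPM) in dE3, 381 counts (11.5 CPM) in cKO and 384 counts (12.0 CPM) in WT, and was 6.42-fold higher in dE3 (5.76 to 7.16). Pcdhgb2, which starts at 37689828, had 3303 counts (94.2 CPM) in dE3, 648 counts (19.6 CPM) in cKO and 599 counts (18.7 CPM) in WT, and was 5.03-fold higher in dE3 (4.61 to 5.49). In both, cKO and WT lay close together and their interval included 1. Pcdhgb8, which starts at 37761801 and is annotated as a polymorphic pseudogene, had 3640 counts (104 CPM) in dE3, 2553 counts (77.3 CPM) in cKO and 600 counts (18.8 CPM) in WT. It was 5.53-fold higher in dE3 (5.07 to 6.04) and 4.12-fold higher in cKO (3.77 to 4.51), each against WT. Here both mutant libraries were high and WT alone was low.

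The remaining called γ genes differed less. Pcdhga12, at 1605 counts (45.8 CPM) in dE3, 719 counts (21.8 CPM) in cKO and 684 counts (21.4 CPM) in WT, was 2.14-fold higher in dE3 than in WT (1.95 to 2.34) and lay just inside the threshold. Pcdhgc3, a C-type γ gene whose product has been reported to bind Axin1 and dampen Wnt signalling, had 1434 counts (40.9 CPM) in dE3, 653 counts (19.8 CPM) in cKO and 466 counts (14.6 CPM) in WT. It was 2.81-fold higher in dE3 (2.53 to 3.12), and the ratio of cKO to WT was 1.36 (1.20 to 1.53), short of 2-fold. By the estimated division between its transcripts, the full coding one was not higher, with 276 counts in dE3, 347 in cKO and 324 in WT. Without its transcript annotated for nonsense-mediated decay the gene stood at a log2 ratio of -0.30 for dE3 against WT. The other C-type γ genes were not called. Pcdhgc4, the isoform known to be needed for the survival of spinal interneurons in mice, had 1191 counts (34.0 CPM) in dE3, 1560 counts (47.2 CPM) in cKO and 1533 counts (48.0 CPM) in WT, at a ratio of dE3 to WT of 0.708 (0.656 to 0.765). Pcdhgc5, the γ gene with the lowest TPM in each library, had 316 counts in dE3, 258 in cKO and 304 in WT, at 0.948 (0.807 to 1.11) for dE3 against WT and 0.821 (0.693 to 0.973) for cKO against WT. Among the γ genes with the 5 highest mean CPM, Pcdhgb6 was level, at 42.4 CPM in dE3, 47.5 CPM in cKO and 43.1 CPM in WT.

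**Figure D3:**
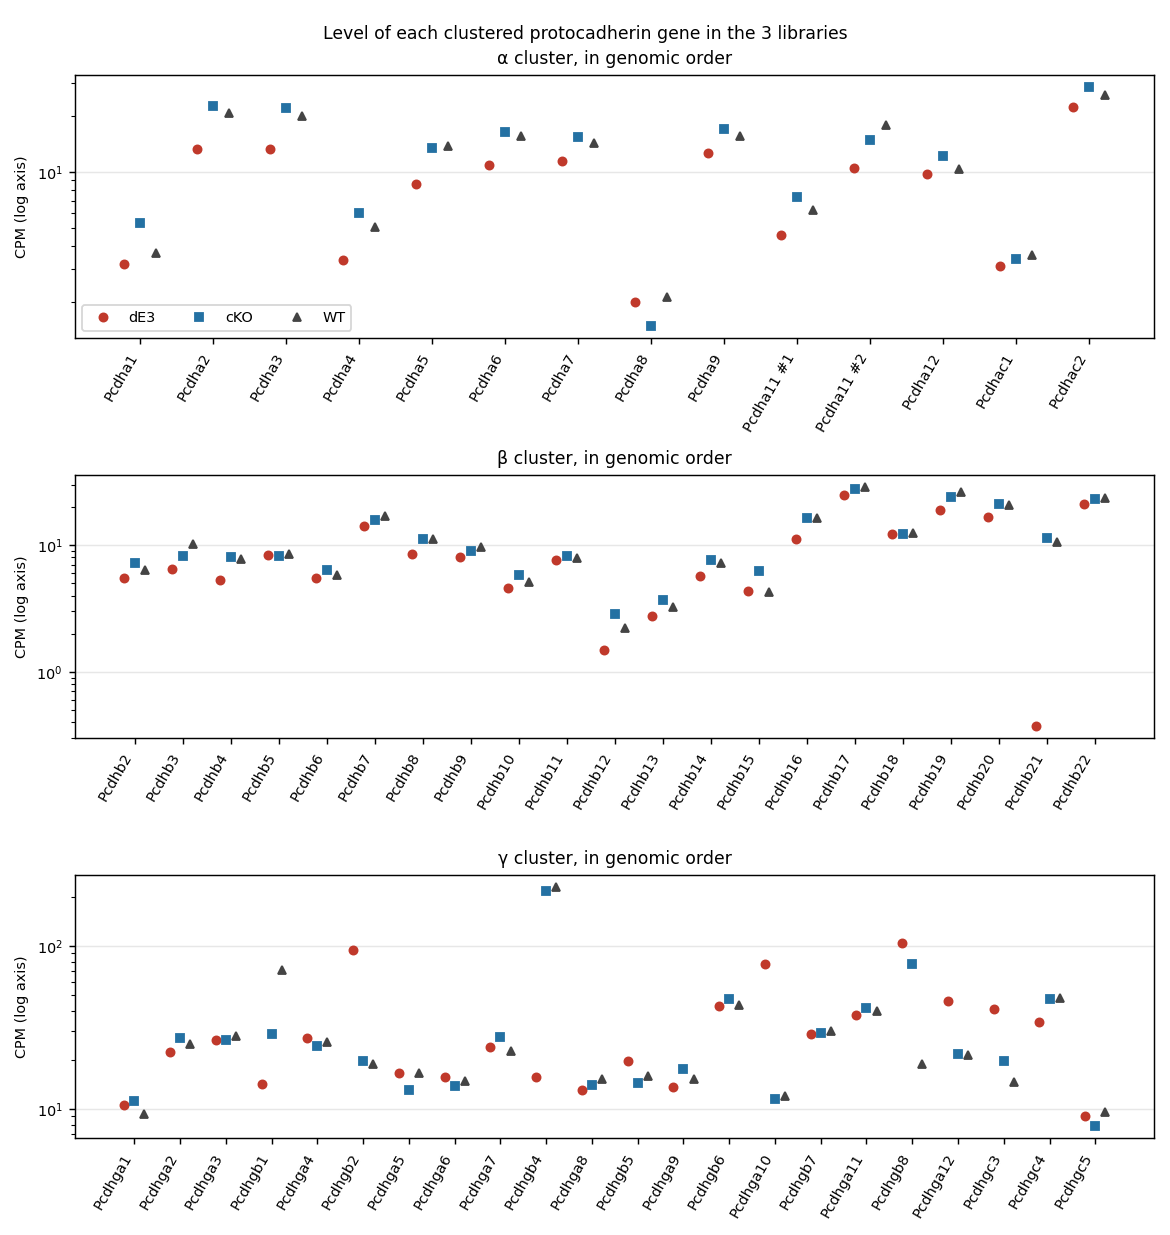
CPM on a log axis of the measured members of each cluster in genomic order, with dE3 (circles), cKO (squares) and WT (triangles); Pcdha11 #1 and #2 are ENSMUSG00000007440 and ENSMUSG00000102206. Pcdhb21 lies at 0.371 CPM in dE3 and above 10 CPM in cKO and WT, and among γ genes the highest point is Pcdhgb8 at 104 CPM in dE3 and Pcdhgb4 at 217 CPM in cKO and 230 CPM in WT.

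The 7 called γ genes differed in opposite directions, and their sum was nearly level. Together they held 13728 counts in dE3, 13072 in cKO and 12376 in WT, which is 53.4%, 52.2% and 51.9% of all γ counts. The ratio of the sums was 1.01 (0.987 to 1.04) for dE3 against WT and 1.02 (0.997 to 1.05) for cKO against WT. Members were placed in this set by their own differences, so the level sum of the set is a description. The 15 γ genes not called held 11956 counts in dE3, 11993 in cKO and 11461 in WT. Their log2 ratios for dE3 against WT spanned -0.50 (Pcdhgc4) to 0.29 (Pcdhgb5).

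Each called γ gene had at least 1 library in which its count lay within the range of the γ genes that were not called. Their lowest counts were 381 to 684, and the γ genes not called held 258 to 1567 counts over the 3 libraries. Above 2000 counts stood 3 γ genes in dE3 (Pcdhgb8, Pcdhgb2 and Pcdhga10), 2 in cKO (Pcdhgb4 and Pcdhgb8) and 2 in WT (Pcdhgb4 and Pcdhgb1). The counts of the 7 genes above their own lowest library summed to 9955 in dE3, 9299 in cKO and 8603 in WT, which is 38.8%, 37.1% and 36.1% of γ counts. These 7 genes were picked by such differences, mostly in dE3 against WT, so the sums and shares are a description of that choice and nothing is read from them.

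In cKO against WT, a contrast that did not serve to choose the family, 2 of 57 measured members were called, 1 higher (Pcdhgb8) and 1 lower (Pcdhgb1), where 6.89% of all measured genes were called, 3.48% higher and 3.41% lower. The share was 3.56% among genes within the count range of the members. At 1.5-fold, 2 members and 13.9% of all genes were called, and at 4-fold 1 member (Pcdhgb8) and 1.74%. Of the members, 32 lay above and 25 below a ratio of 1, and the interval excluded 1 for 10 above and 6 below, where over all measured genes it did so for 27.2% above and 26.7% below. The median log2 ratio was 0.04 over the members, 0.13 in α, 0.02 in β and -0.03 in γ, against 0.00 over all measured genes. Next to the threshold but outside it were Pcdhb15, with a ratio of 1.45 (1.17 to 1.82), and Pcdha1, with a ratio of 1.44 (1.14 to 1.84). Pcdhb15 had 153 counts in dE3, 206 in cKO and 137 in WT, and Pcdha1 had 113, 176 and 118 in the same order. Apart from the called pair, the γ genes ran from -0.35 (Pcdhga5) to 0.44 (Pcdhgc3) on the log2 scale. Both comparisons with a mutant use the same WT library, and the values of Pcdhgb1 and Pcdhgb8 in WT enter both.

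The mutant libraries were also set directly against each other, which uses the same dE3 library as above. In dE3 against cKO, 7 of 57 members were called, 4 higher and 3 lower, where 6.62% of all measured genes were called higher, 4.38% lower and 11% in either direction, or 7.48% within the count range of the members. At 1.5-fold 16 members and 22% of all genes were called, and at 4-fold 4 members and 3.08%. Pcdhb21 was 30.6-fold lower in dE3 than in cKO (17.7 to 58.0), Pcdhgb4 13.9-fold lower (12.8 to 15.2) and Pcdhgb1 2.03-fold lower (1.82 to 2.27). Higher in dE3 than in cKO were Pcdhga10 by 6.68-fold (6.00 to 7.46), Pcdhgb2 by 4.80-fold (4.41 to 5.23), Pcdhga12 by 1.07 on the log2 scale and Pcdhgc3 by 2.07-fold (1.88 to 2.27). For Pcdhgb8 the ratio was 1.34 (1.28 to 1.41). The α median was -0.55, with 13 of 14 genes below a ratio of 1, the β median -0.35 and the γ median -0.01, against 0.02 over all measured genes. The interval lay below 1 for 34 members and above it for 9, and for 31% and 33.1% of all measured genes. Outside the threshold but next to it lay Pcdhb12, 1.94-fold lower (1.37 to 2.77) with 52 counts in dE3, 95 in cKO and 71 in WT, and Pcdha4, 1.78-fold lower (1.41 to 2.26).

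The transcript table separates γ transcripts that hold the last constant exon from shorter ones without it, such as retained introns and single-exon transcripts. Those with it carried 24709 of the γ counts in dE3, 24602 in cKO and 23034 in WT, and those without it 975 counts in dE3, 463 in cKO and 803 in WT. Only 11 of the 22 γ genes have annotated transcripts without it. Of the called γ genes, Pcdhga10 and Pcdhgb8 have none, so all their counts fell in transcripts with the exon. In the other called γ genes, transcripts with the exon held most of the counts in each library. Pcdhgb4 had 511 counts with it in dE3, 7140 in cKO and 7317 in WT, but 35, 27 and 48 counts without it. Pcdhgb2 had 3291 counts with it in dE3, 597 in cKO and 549 in WT, whereas without it the order was turned, at 12, 51 and 50 counts. Pcdhgb1 had 496 counts with it in dE3, 911 in cKO and 2234 in WT, and 1, 40 and 44 without it. In Pcdhga12 both kinds were higher in dE3, with 1507, 689 and 653 counts with the exon and 98, 30 and 31 without it. The transcripts of 1 gene share most of their variable exon, so their division is an estimate as well.

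Some γ genes with a level total had transcripts that were not level. Pcdhga1 had 372 counts in dE3, 368 in cKO and 297 in WT, and was not called in any comparison. Its transcripts with the last constant exon had 30 counts in dE3, 334 in cKO and 18 in WT, and its single-exon transcript 342, 34 and 279. As estimated, the cKO library had its Pcdhga1 counts mostly in the spliced form, and dE3 and WT in the single-exon one. The division of reads between these transcripts was not tested. Pcdhga7 had 845 counts in all in dE3, 905 in cKO and 724 in WT, of which 196, 18 and 45 lay in the transcript without the constant exon. In Pcdhgc3, the transcript annotated for nonsense-mediated decay held 1128 counts in dE3, 271 in cKO and 123 in WT. By the estimated division, the higher gene total of Pcdhgc3 in dE3 lay in the decay transcript and not in the coding one. Of the 3588 bases of the decay transcript, 2119 lie in the γ constant exons, and how their reads were divided was not tested. Only 2 of the 14 α genes have annotated transcripts without their last constant exon. These 3 transcripts held 29 counts in dE3, 44 in cKO and 63 in WT.

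**Figure D4:**
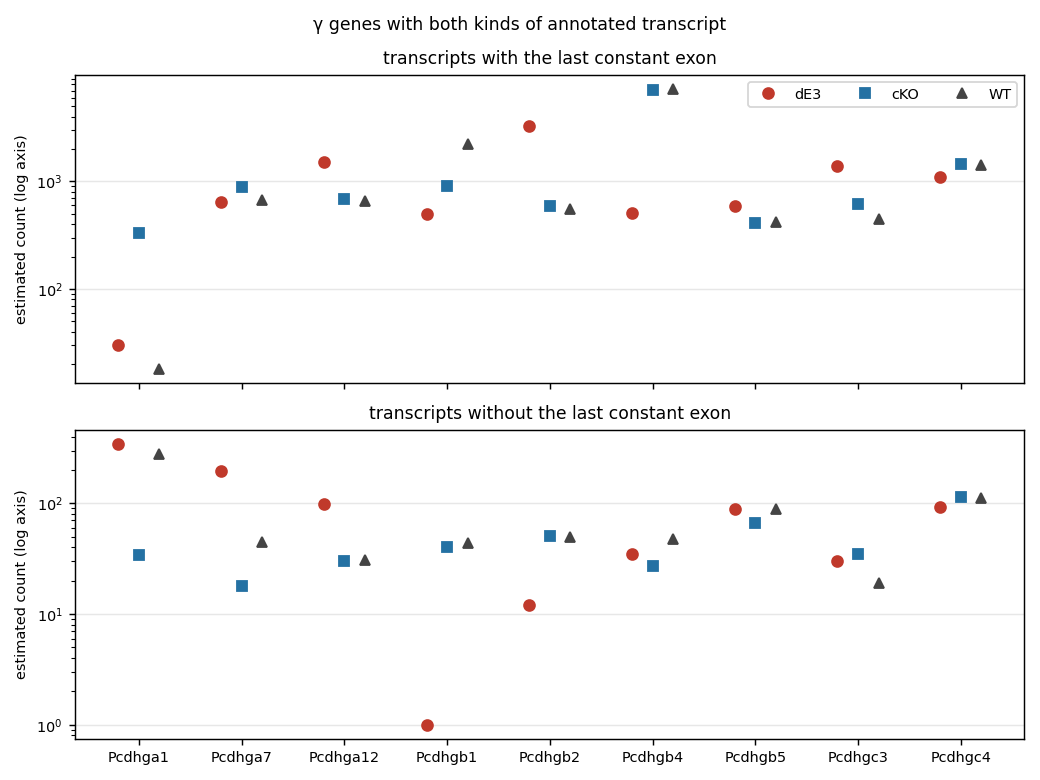
Estimated counts on log axes of 9 γ genes that have both kinds of annotated transcript, with the last constant exon (upper panel) and without it (lower panel), in dE3, cKO and WT. Pcdhgb4 is low in dE3 only in the upper panel, Pcdhgb2 is high in dE3 above and low below, and Pcdhga1 in cKO lies above the other libraries in the upper panel and below them in the lower one.

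Of the 7 called γ genes, the median share of words held by another gene was 52.1%, and of the 15 not called 45.0%. The called genes ran from Pcdhga12 at 36.9% to Pcdhga10 at 99.0%, and those not called from 35.5% to 72.4%. Pcdhga10 overlaps the antisense gene Gm26672, which had 476 counts in dE3, 290 in cKO and 459 in WT, and Pcdhgc3 overlaps the antisense gene BC037039, with 246 counts in dE3, 165 in cKO and 287 in WT. Of the Pcdhga10 words outside the constant part, 98.1% are also found in Gm26672. Reads of each pair cannot be told apart where strand was not used, and their division was not tested. Other genes on the same strand also hold parts of the γ constant exons. Gm38182 had 96 counts in dE3, 429 in cKO and 128 in WT, at a ratio of cKO to WT of 3.24 (2.66 to 3.98). Gm42416 had 0, 0 and 45 counts in the same order, and Gm37013 and Gm37388 had 0, 0 and 2 each. With these 4 genes added, the log2 ratio of the γ sum was -0.03 for dE3 against WT and 0.04 for cKO against WT. The coding parts of the variable exons of the called γ genes were no more than 79.4% identical to another γ gene, the pair Pcdhgb4 and Pcdhgb5.

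**Figure D5:**
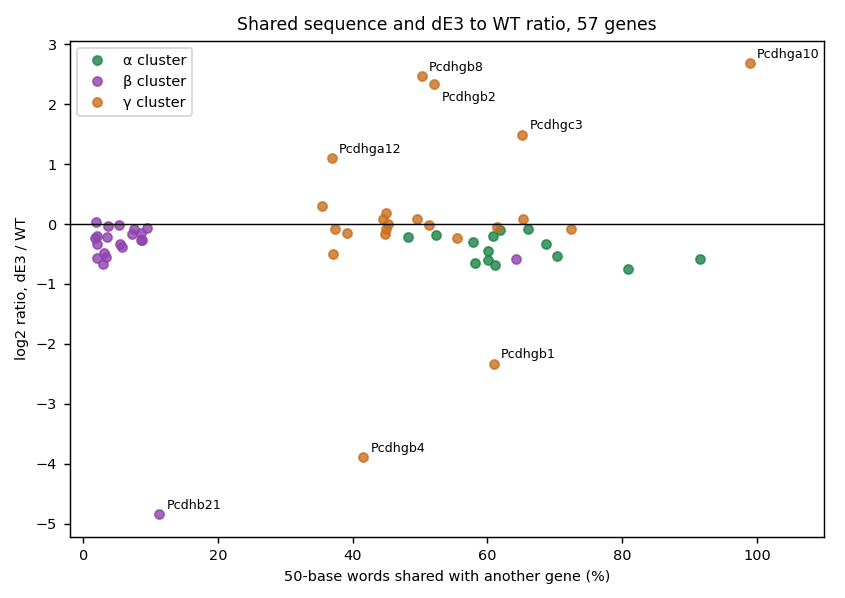
Percent of 50-base words shared with another gene against the log2 ratio of dE3 to WT for the 57 measured members, coloured by cluster, with the called members named. The named γ genes lie between 36.9% and 99.0% and the γ genes not called between 35.5% and 72.4%, a range that Pcdhga10 at 99.0% exceeds; Pcdhb21 lies at 11.3%.

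A list of 19 genes covered Ctcf, cohesin, repressors such as Smchd1 and DNA methylation, which are classes linked to the choice of protocadherin promoters. Whether each listed gene acts at these promoters was not tested. Of the 19 genes, 0 were called higher and 1 lower in dE3 against WT, with a median log2 ratio of 0.04. In cKO against WT 0 of 19 were called, with a median of -0.15. Over all measured genes 6.52% were called higher and 3.78% lower in dE3, and 6.89% in either direction in cKO, so counts this small in lists of this size do not set them apart, here or in the lists below. The one called was Dnmt3a, a DNA methyltransferase, with 117 CPM in dE3, 312 CPM in cKO and 293 CPM in WT, at a log2 ratio of dE3 to WT of -1.32. Its relative Dnmt3b, which is known in mice to methylate protocadherin promoters, was not called and had 8.07 CPM in dE3, 5.69 CPM in cKO and 5.01 CPM in WT. Ctcf had 127 CPM in dE3, 123 CPM in cKO and 136 CPM in WT. Rest, a repressor of neuronal genes, stood short of the threshold at 58.9 CPM in dE3, 30.1 CPM in cKO and 32.3 CPM in WT, a ratio of dE3 to WT of 1.82 (1.69 to 1.97).

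Of 19 partners of the proteins at the membrane or in the cytoplasm, such as the WAVE complex and the kinase Ptk2, 0 were called higher and 1 lower in dE3 against WT, at a median of -0.04, and 0 were called in cKO against WT, at 0.00, beside 10.3% of all measured genes called in dE3 and 6.89% in cKO. The called partner was Ptk2b, a kinase bound and inhibited by the α and γ tails, which was low throughout with 0.713 CPM in dE3, 1.64 CPM in cKO and 1.66 CPM in WT. Axin1 had 65.5 CPM in dE3, 51.5 CPM in cKO and 57.6 CPM in WT and was not called. Of 23 listed genes that lie beside or between the clusters, 20 were measured and 0 of them called in dE3 or in cKO against WT, with medians of -0.01 and 0.10, where the shares over all measured genes were again 10.3% and 6.89%. The γ neighbour Diaph1, for example, had 55.1 CPM in dE3, 51.7 CPM in cKO and 53.3 CPM in WT.

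The neuronal markers, which stand for the cells that use these clusters most, had a median log2 ratio of -0.33 for dE3 against WT and -0.08 for cKO against WT, next to -0.39 and 0.13 for the α and -0.26 and 0.02 for the β genes. Of the 10 markers, 8 lay below a ratio of 1 in dE3 against WT and 0 were called. The 10 progenitor markers ran from -1.61 to 1.20 in dE3 against WT, with a median of 0.20, 1 called higher and 2 lower. Over all measured genes 6.52% were called higher and 3.78% lower, and nothing is read from the calls in lists of 10 genes. The part of neurons and progenitors in the lower α and β sums was not tested.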

How the data were processed

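Spinal cord RNA (1 µg of total RNA per library, made into libraries with the VAHTS mRNA-seq V2 kit per the labels' protocols) was sequenced in 3 libraries, 1 per genotype. CASAVA, Bowtie2 2.3.2 and GRCm38.p6 are named, with no role, per the submitters' processing notes. What estimated the counts, on which annotation release and whether by strand, is not given in the sources used here. The authors deposited estimated counts per gene and per transcript as whole numbers, and in all 51826 genes the transcripts added up to the gene's count. They also deposited TPM and FPKM values, named per the file headers; TPM compared levels between genes and served as an alternative, and the deposited FPKM values were not used further.

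Library totals of 34790053 (dE3), 33048837 (cKO) and 32167470 (WT) counts were scaled by TMM factors of 1.01, 0.999 and 0.993 from genes with 20 or more counts in a library (edgeR 4.0.16, R 4.3.3). Ratios carry exact conditional binomial (Clopper-Pearson) intervals at 95% (SciPy 1.17.1). Without molecular identifiers, reads are not independent molecules, so intervals and the floor of 3 counts cover counting error only. Calls were made on the whole table and were tested on simulated data. Transcripts and words came from GENCODE vM21 (GRCm38).

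Full values are given for members called in any comparison, the 5 with the highest mean CPM in each cluster and the C-type genes; of each related list, for the called genes or those with the highest mean CPM, up to 3. Pcdhb15, Pcdha1, Pcdha5, Pcdhb12, Pcdha4, Pcdhga1, Pcdhga7, the members named as ends of a range or for their identity, the overlapping genes, Dnmt3b, Rest, Ctcf, Axin1 and Diaph1 fall outside this rule and were named after their values were seen. The members and lists were chosen with earlier results of these data known. No sequence is printed here. Alternatives changed the scaling, count minimum, fold, unit, transcripts and members summed; those on sets of γ genes were added after seeing the data.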

Additional observations from a re-analysis of the deposited data

How the results depend on the processing

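No paired analysis was possible because each genotype had 1 library. For the same reason no replicate could be left out. Of 102 alternatives for counts of called members, cluster sums and medians, 80 left the value within set limits. The limits were 1.5 times for a count, the counting interval for a ratio and, for a median, an interval set by ranking the members. For counts only the number of calls was compared, whichever genes were called and in whichever direction. The setting without the transcript that differed most is among the 80 for dE3 against WT and against cKO, though calls were lost or turned. Of 327 alternatives for single genes, 301 stayed within the counting interval, 19 moved beyond it and 7 turned the direction of a called gene. Scaling by RLE factors or total counts left 8 members called in dE3 and 2 in cKO, each against WT. In dE3 against cKO 7 stayed called. The RLE factors, 1.01 in dE3, 0.995 in cKO and 0.995 in WT, lay close to the TMM factors, so this change tested little. The other count minimums gave the same counts and could not have changed them. A minimum of 100 left out only Pcdha8 and Pcdhb12, which were not called. Dropping the minimum could add only Pcdhb1, at 0 counts in all 3 libraries. These count minimums are among the 80 alternatives above. A threshold of 1.5-fold called 13 members in dE3 against WT and 16 in dE3 against cKO. One of 4-fold called 1 in cKO against WT and 4 in dE3 against cKO. Among the 20 measured members sharing under 20% of words, all β genes, 1 was called in dE3 and 0 in cKO, each against WT, and 1 in dE3 against cKO. This setting leaves out every γ gene, so it says nothing on the called γ genes, all of which share more of their words.

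Without the transcript that differed most, 4 members were called in cKO against WT, all lower (Pcdhb8, Pcdhga1, Pcdhga7 and Pcdhga9) and 0 of them shared with the main calls. In dE3 against WT this setting called 6, of which 5 were among the main calls, Pcdhgb2 in the opposite direction: Pcdhgb4 (log2 ratio -0.59), Pcdhgb8 and Pcdhgc3 were lost and Pcdha6 was gained. In dE3 against cKO it called 8, of which 5 were shared, with Pcdhgb4 and Pcdhgc3 lost. Among the shared calls of both comparisons, Pcdhb21 and Pcdhga10 have 1 transcript each, so this setting could not change them. The setting turned the log2 ratio to -2.19 (Pcdhgb2), -1.13 (Pcdhgb8) and -0.30 (Pcdhgc3) for dE3 against WT, to -0.048 (Pcdhgb8) for cKO against WT, and to -2.17 (Pcdhgb2), 0.29 (Pcdhgb4) and -0.41 (Pcdhgc3) for dE3 against cKO. What is left of Pcdhgb8 is a transcript with 1 count in dE3, 2 in cKO and 2 in WT, under the floor of 3 counts. The other turned ratios are also those of the transcripts left. In dE3, cKO and WT these held 12, 51 and 50 counts for Pcdhgb2 and 35, 27 and 48 for Pcdhgb4. For Pcdhgc3 they were the coding transcript, at 276, 347 and 324, and a retained intron, at 30, 35 and 19. Why they differ from the transcript left out was not tested.

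Without Pcdhb21 the log2 ratio of the β sum was -0.28 for dE3 against WT and -0.27 for dE3 against cKO. The γ sum for dE3 against WT was 0.019 in TPM, 0.48 without Pcdhgb4 (the gene with the most counts and the largest difference), 0.016 over the 7 called genes and -0.072 over the other 15. For cKO against WT it was 0.072 without Pcdhgb4 and -0.093 without Pcdhgb8. For dE3 against cKO it was -0.012 in TPM, 0.40 without Pcdhgb4, -0.015 over the 7 called genes and -0.090 over the other 15. The level γ sum thus held for the cluster as a whole and not after Pcdhgb4 was left out. The α sum stayed between -0.48 and -0.41 for dE3 against WT under all 5 alternatives.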
